A study of Mus musculus with 51 samples.

Results

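Fatty acid oxidation is described here through 8 genes, Fabp1, Acsl1, Cpt1a, Cpt2, Acadm, Acadl, Hadha and Ehhadh, taken by name from the 33773 rows of an expression matrix of mouse hepatocytes and liver. All 8 were found, and all 8 passed the filter on low values in both tissues. None of the 8 makes ketone bodies themselves, so the genes of ketone synthesis are given from a separate pathway list. Values are RPKM, reads scaled by transcript length and by library size. A level can therefore be compared between genes, within the limits of a counting and annotation that are not given.

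A fatty acid that enters the hepatocyte is held in the cytosol by a binding protein, joined to coenzyme A, and passed into the mitochondrion as a carnitine ester. There, rounds of dehydrogenation, hydration and thiolysis shorten the chain, and the acetyl groups released can be made into ketone bodies during fasting. Peroxisomes run a related cycle on very long chains, and the nuclear receptor PPARalpha, encoded by Ppara, is the best known activator of the genes of all these steps in liver. FoxA1, FoxA2 and FoxA3 are related forkhead transcription factors of liver, and HNF4a is a nuclear receptor of the same cells.

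The study asked what adult hepatocytes express after loss of every FoxA gene. Triple null hepatocytes (4 libraries) came from FoxA1 L/L, FoxA2 L/L, FoxA3-/- mice given Cre recombinase at 8 weeks of age by adeno-associated virus 8 under the Tbg promoter, which is active in hepatocytes. FoxA3 null hepatocytes (4 libraries) are read here as the controls of the same genotype given a GFP virus, so both groups lack FoxA3. FoxA1/A2 lox hepatocytes (3 libraries) keep all FoxA genes, and FoxA1/A2 Cre alfp hepatocytes (4 libraries) lost FoxA1 and FoxA2 through a Cre that the labels name alfp without further description and keep FoxA3. From liver there were 2 HNF4a control libraries and 4 labelled HNF4a null, with the gene depleted in the adult. Ages of these other groups, strain and sex are not given in the sources used here. Nothing states that libraries of a group came from separate animals, so the p-values measure the spread between these libraries only.

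Foxa3 was listed at no more than 0.0114 RPKM in the triple null and FoxA3 null libraries and at 19.0 to 34.5 RPKM in lox and Cre alfp. Foxa2 was 0.243 to 0.470 RPKM in the triple null against 11.1 to 20.6 in FoxA3 null, and 0.991 to 1.26 in Cre alfp against 6.84 to 19.2 in lox. More Foxa1 RNA remained in the triple null, 3.04 to 3.63 RPKM against 6.14 to 10.1 in FoxA3 null (38.6% ± 3.33), than in Cre alfp, 1.14 to 1.34 RPKM against 4.71 to 8.21 in lox (18.4% ± 1.49). Hnf4a RNA was higher in liver labelled HNF4a null than in control, 487 to 545 against 118 and 126 RPKM. This goes against the label as a measure of RNA, and whether the part counted lies outside the deleted part is not known, so each direction drawn from these libraries holds for the label only. Absolute depth is unknown, and relative depth, read from steps between low values, ran from 1 in the shallowest liver library to 4.06 in hepatocytes. The summed RPKM of 10 hepatocyte markers was 29230 to 46111 in hepatocyte libraries and 13966 to 24664 in liver libraries, and none of the 10 was at 0 in any group. The 8 libraries without FoxA3 also stood apart from the 7 with it beyond Foxa3 itself, with no overlap between the sides for 1277 of 11500 tested genes (11.1%). The labels name no batch, and FoxA3 status and any other difference between these sides cannot be told apart in comparisons across them.

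Fabp1, the liver fatty acid binding protein, was by far the most abundant member in hepatocytes, with a mean of 11092 ± 606 RPKM (SD, n = 3) in lox. The other 7 members lay between 28.6 ± 6.28 RPKM for Cpt1a and 179 ± 24.8 for Acsl1 in that group. The order in lox ran Fabp1, Acsl1, Hadha, Cpt2, Acadm, Acadl, Ehhadh, Cpt1a, and the library ranges of the neighbours Acsl1 and Hadha, Cpt2 and Acadm, and Acadm and Acadl overlapped. In the triple null it ran Fabp1, Hadha, Acadm, Acadl, Acsl1, Ehhadh, Cpt2, Cpt1a, and the ranges of all neighbours except Fabp1 and Hadha overlapped. Cpt1a, the outer membrane transferase that controls entry of long chains into the mitochondrion, had the lowest mean in all 4 hepatocyte groups. Its range overlapped that of Cpt2 in FoxA3 null and the triple null, and that of Ehhadh in Cre alfp. In liver labelled HNF4a null Fabp1 was last of the 8, and its range overlapped that of Cpt2.

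**Figure D1:**
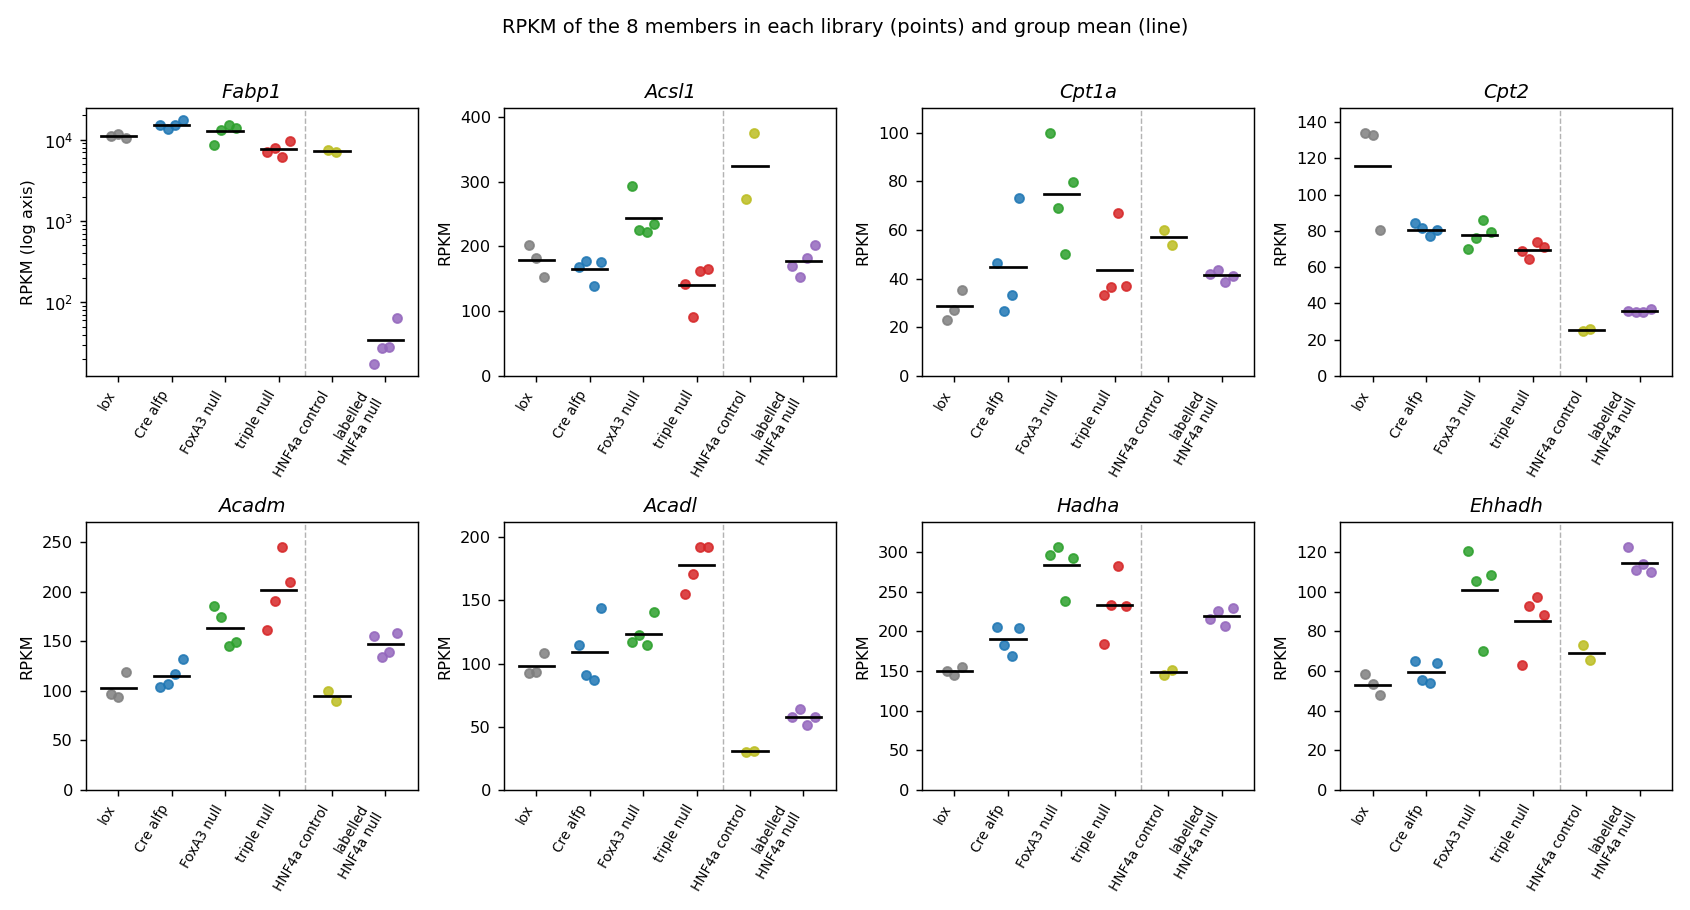
RPKM of each member (y axis, log scale for Fabp1 and linear from 0 for the others) in every library, grouped on the x axis; points are libraries and horizontal lines are group means. Fabp1 lay at 17.5 to 64.1 RPKM in liver labelled HNF4a null and at 6159.8 RPKM or more in every other library, and Acadm was higher in each library without FoxA3 than in any hepatocyte library with it, as 11.1% of all tested genes were apart between these sides in either direction.

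Loss of FoxA1 and FoxA2 on top of FoxA3 was examined first, in triple null against FoxA3 null. Fabp1 fell to 60.6% ± 11.4 and Acsl1 to 57.3% ± 14.0 of the FoxA3 null mean, whereas Acadl rose to 144% ± 14.6 (SD, n = 4 each). The other 5 members did not pass the test. Thus 1 of 8 members was higher, where 17.4% of all 11500 tested genes were, and 2 of 8 were lower, where 12.3% of all were. With a log2 difference of at least 1 required as well, 0 were higher and 0 lower, where 4.17% and 3.95% of all were. The median log2 difference of the 8 was -0.26, and that of all tested genes 0.05. In bulk RNA, fewer cells of a type and less RNA per cell cannot be told apart.

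Fabp1 measured 7134, 7899, 6159.8 and 9585 RPKM in the triple null and 8571, 13262, 15071 and 13905 RPKM in FoxA3 null. The groups overlapped, since the highest triple null library exceeded the lowest FoxA3 null library. The log2(RPKM + 1) difference was -0.71 ± 0.17 (SE; limma, Benjamini-Hochberg adjusted p = 0.00726). The call was lost without the filter on low values, where the SE of the same difference was 0.30 (limma, adjusted p = 0.159). Acsl1, the ligase that joins long-chain fatty acids to coenzyme A, measured 142, 90.9, 162 and 165 RPKM against 293, 226, 222 and 235 RPKM. Every triple null library was below every FoxA3 null library (27.9% of all tested genes did not overlap between these groups, in either direction), with a difference of -0.83 ± 0.18 (limma, adjusted p = 0.00289).

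Cpt1a measured 33.3, 36.7, 67.1 and 36.8 RPKM in the triple null and 100.1, 68.9, 50.3 and 79.9 RPKM in FoxA3 null. Triple null library 3 stood apart at 67.1 RPKM and lay above the lowest FoxA3 null library, and the difference of -0.78 ± 0.30 did not pass (limma, adjusted p = 0.0643). Without that library it was -1.01 and passed (limma, adjusted p = 0.0214), and without FoxA3 null library 3 it was -0.96 and also passed (limma, adjusted p = 0.0336). Cpt2, the inner membrane transferase that turns carnitine esters back into coenzyme A esters, was 64.6 to 74.1 RPKM against 70.3 to 85.9 RPKM, with overlapping groups and a difference of -0.16 ± 0.14 (limma, adjusted p = 0.432).

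Acadl and Acadm encode the long-chain and medium-chain acyl-CoA dehydrogenases of the first step of the cycle. Acadl measured 155, 171, 193 and 192 RPKM in the triple null and 117, 123, 114 and 141 RPKM in FoxA3 null. The groups did not overlap, as for 27.9% of all tested genes in either direction, and the difference was 0.52 ± 0.15 (limma, adjusted p = 0.0171). It narrowly missed the threshold without triple null library 4 (0.48; limma, adjusted p = 0.0511). Acadm measured 161, 190.5, 245 and 209.8 RPKM against 185, 175, 145 and 149 RPKM. Its groups overlapped, and the difference of 0.29 ± 0.14 did not pass (limma, adjusted p = 0.133), although it passed without triple null library 1 at 0.39 (limma, adjusted p = 0.0482).

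Hadha, the alpha subunit of the mitochondrial trifunctional protein that carries out the later steps on long chains, measured 184, 233, 282 and 231 RPKM in the triple null and 296, 307, 239 and 292 RPKM in FoxA3 null. The groups overlapped, and the difference of -0.29 ± 0.13 did not pass (limma, adjusted p = 0.0973). Ehhadh, the peroxisomal bifunctional enzyme, was 62.8 to 97.5 RPKM against 70.1 to 120.3 RPKM, again overlapping, with a difference of -0.23 ± 0.17 (limma, adjusted p = 0.327). When each library was centred on its median, Cpt1a and Hadha also passed as lower, which made 4 lower and 1 higher, where 14.6% and 15.8% of all genes were.

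The authors' deposited table of this comparison gave the same signs for all 8 members. It listed Acadl as higher (log2 fold change 0.47 ± 0.11 SE) and 5 members as lower at an adjusted p under 0.05, among them Cpt1a (-0.86 ± 0.24), Cpt2 (-0.49 ± 0.14) and Hadha (-0.52 ± 0.18). There, 20.6% of genes were higher and 22.1% lower. Its libraries and test are not stated.

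Genes of the pathway lists around the members were also compared in triple null against FoxA3 null. Beside their counts, 17.4% of all tested genes were higher and 12.3% lower. Of 4 further genes of the carnitine shuttle, Crat, the carnitine acetyltransferase, rose from 26.9 ± 4.43 to 74.7 ± 21.2 RPKM (log2 difference 1.41; limma, adjusted p = 5.35e-05), and the other 3 did not pass. Of 9 genes of uptake and activation 3 rose and 1 fell: Cd36, a fatty acid translocase, went from 3.84 ± 2.26 to 32.7 ± 10.9 RPKM and Dbi, the acyl-CoA binding protein, from 1778 ± 382 to 2736 ± 181 RPKM, while Fabp2, the intestinal-type binding protein, went from 58.6 ± 16.8 to 36.3 ± 7.42 RPKM. Of 15 further genes of mitochondrial beta oxidation none rose and 2 fell, Eci2 (log2 difference -0.87) and Acads (-0.51), the latter the short-chain dehydrogenase. In this list 13 genes did not pass and the median log2 difference was 0.08.

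Of 16 peroxisomal genes 2 were higher and 3 lower, where 17.4% and 12.3% of all tested genes were. Scp2, which encodes a sterol carrier and peroxisomal thiolase, fell from 930.4 ± 241 to 324 ± 43.1 RPKM (log2 difference -1.50; limma, adjusted p = 1.17e-05). Pex11a, which promotes peroxisome division, also fell (-1.07), and Abcd2, a transporter of the peroxisomal membrane, rose (1.32). Of the 6 genes of ketone synthesis and export, Bdh1, which interconverts the 2 main ketone bodies, fell from 162 ± 22.9 to 94.0 ± 17.7 RPKM (log2 difference -0.78; limma, adjusted p = 0.00394). Of 4 genes of omega oxidation Cyp4a12a rose (1.88) and Cyp4a14 fell (-2.65), and reads of this multigene family may be shared between near-identical copies.

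Among 8 genes linked to PPARalpha outside oxidation, 4 rose and 2 fell. Cidec, a lipid droplet protein, rose from 2.00 ± 0.614 to 52.0 ± 7.11 RPKM (log2 difference 4.15) and Vnn1, a pantetheinase, from 27.2 ± 10.4 to 140.2 ± 24.8 RPKM (2.38), while Angptl4, an inhibitor of lipoprotein lipase, fell (-1.01). Acaca, which makes malonyl-CoA, measured 2.56, 2.49, 1.97 and 2.31 RPKM in the triple null and 23.4, 6.06, 3.02 and 5.27 RPKM in FoxA3 null. The groups did not overlap, as for 27.9% of all tested genes in either direction. FoxA3 null library 1 was far above the rest, and the difference of -1.29 only just passed (limma, adjusted p = 0.0491). Acacb did not pass. Of 14 regulators, Foxa1 (-1.13) and Foxa2 (-3.39) were lower by design, Creb3l3 (-0.75) was lower and Ncor1, a corepressor, was higher (1.10). Ppara itself was 23.8 to 39.8 RPKM in the triple null and 14.5 to 48.4 in FoxA3 null, and did not pass.

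Markers of other cells also differed between these groups. The sum over 7 markers of sinusoidal endothelium was 6.91 to 13.0 RPKM in the triple null and 22.9 to 35.1 in FoxA3 null, and 4 of 6 tested were lower. The sum over 4 markers of neutrophils and monocytes was 9.07 to 109 RPKM against 0.702 to 1.81, both tested ones were higher, and Mpo was at 0 in all FoxA3 null libraries. For stellate cells and fibroblasts the sum was 6.19 to 22.4 against 24.1 to 33.3 RPKM, with 2 of 3 tested lower. The erythroid sum over 4 markers was 5.94 to 21.7 against 33.0 to 47.3 RPKM, with Alas2 lower (-4.29) and Hba-a1 and Hbb-b1 higher. Of the 10 hepatocyte markers 2 were higher and 4 lower, with log2 differences from -2.16 to 1.61. The adipocyte sum over 4 markers was 1.65 to 9.91 against 1.19 to 1.57 RPKM, the 1 tested marker, Fabp4, was higher (1.09), and Lep was at 0 in both groups. Their part in the values of the members was not tested.

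**Figure D2:**
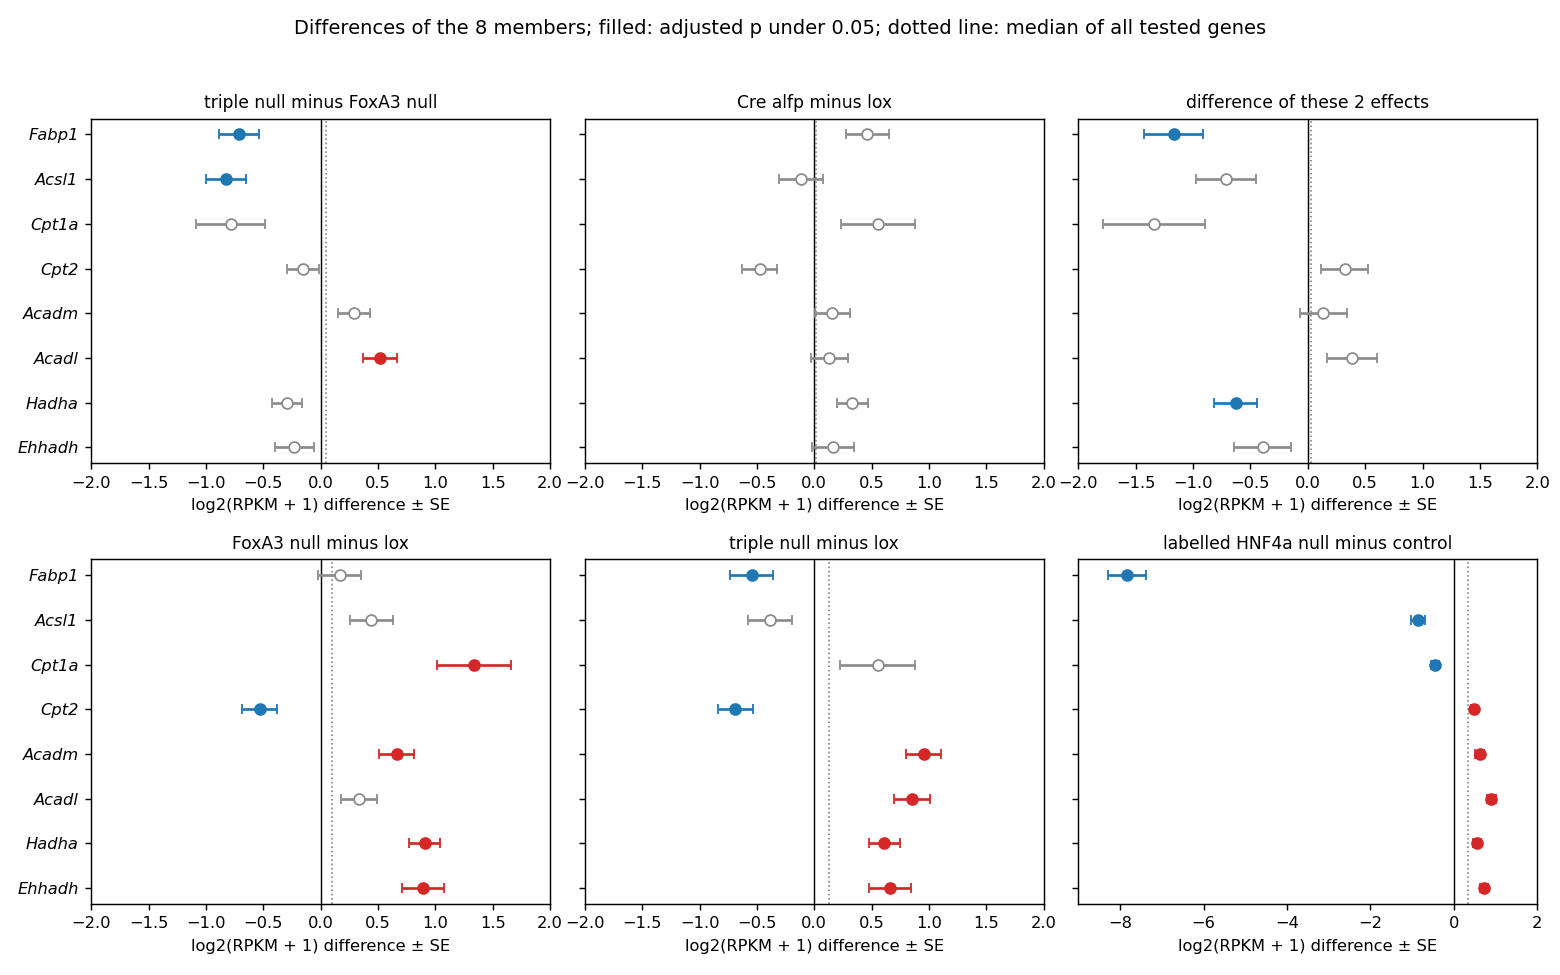
Difference of each member on the log2(RPKM + 1) scale (x axis, ± SE from limma) in 6 comparisons; filled points passed at an adjusted p under 0.05 (red higher, blue lower), open points did not, and the dotted line is the median of all tested genes. Fabp1 and Acsl1 passed as lower and Acadl as higher in triple null against FoxA3 null, no member passed in Cre alfp against lox, and the x axis of the liver panel is wider because Fabp1 lay at -7.83.

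Deletion of FoxA1 and FoxA2 with FoxA3 present, Cre alfp against lox, gave no member that passed (limma, 0 of 8 higher and 0 of 8 lower), where 2.84% of all tested genes were higher and 2.62% lower. At an unadjusted p under 0.05, 2 members were higher and 1 lower, where 9.61% and 8.69% of all genes were. Fabp1 measured 15136, 13518, 15302 and 17267 RPKM in Cre alfp and 11101, 11694 and 10482 RPKM in lox. Its groups did not overlap (19.9% of all tested genes did not, in either direction) and Cre alfp was the higher, but the difference of 0.46 ± 0.19 did not pass (limma, adjusted p = 0.198). Hadha measured 205, 182, 169 and 204 RPKM against 150.1, 145 and 156 RPKM, also without overlap (0.33 ± 0.14; limma, adjusted p = 0.204).

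Cpt2 was 80.7 ± 2.93 RPKM (SD, n = 4) in Cre alfp, up to 84.1, and 134, 133 and 80.3 RPKM in lox. The third lox library thus fell within the Cre alfp range, and the difference was -0.48 ± 0.15 (limma, adjusted p = 0.0861). Without that library it was -0.72 and passed (limma, adjusted p = 0.00176). Acsl1 was 139 to 177 against 153 to 202 RPKM, Cpt1a 26.9 to 73.1 against 23.1 to 35.4, Acadm 104 to 132 against 93.4 to 119, Acadl 87.3 to 144 against 92.5 to 108, and Ehhadh 54.0 to 65.0 against 47.9 to 58.3. For these 5 members the groups overlapped. In the pathway lists, Slc27a5, an acyl-CoA synthetase of bile acids and very long chains, was lower (-0.57; limma, adjusted p = 0.0118), Abcd2 (2.45), Plin2 (0.75) and Vnn1 (1.82) were higher, and none of the 15 mitochondrial genes passed (limma; 2 higher and 0 lower at an unadjusted p under 0.05). Of the markers, 1 of 2 tested of cholangiocytes was lower (-1.15, and 0 after centring). Of 3 erythroid ones 1 was higher (1.46) and 1 lower (-2.54). The erythroid sum was 14.9 to 29.2 RPKM in Cre alfp against 81.3 to 90.8 in lox, and the part of these cells was not tested.

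Whether the FoxA1/A2 deletion acted differently without and with FoxA3 was tested as an interaction. This is the difference in triple null against FoxA3 null minus that in Cre alfp against lox. The Cre differed as well, viral under the Tbg promoter without FoxA3 and alfp with it. FoxA3 status and means of deletion therefore cannot be told apart in this test. Foxa1 RNA itself gave an interaction of 0.63 ± 0.23, which did not pass (limma, adjusted p = 0.0850), and the part of its unequal remainder in the values of the members was not tested. Fabp1 fell without FoxA3 relative to its difference with FoxA3, by 1.17 ± 0.26 on the log2 scale (limma, adjusted p = 0.00819). Hadha gave -0.63 ± 0.19 (limma, adjusted p = 0.0392). These were 2 of 8 members lower and 0 of 8 higher, where 6.17% and 8.25% of all genes were (3.54% and 3.28% with a log2 difference of at least 1, which 1 and 0 members met). At an unadjusted p under 0.05, 4 members were lower and 0 higher, where 13.1% and 16.8% of all genes were. The call of Hadha was lost when any of 12 of the 15 libraries was left out, and held without FoxA3 null 3, Cre alfp 3 or triple null 3, while the call of Fabp1 held in all 15 cases. Without the filter on low values neither passed, and Fabp1 kept its value of -1.17 with an SE of 0.44 (limma, adjusted p = 0.166).

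The interaction of Cpt1a was the largest in size, -1.34 ± 0.44, and did not pass (limma, adjusted p = 0.0583). It passed after centring on library medians (limma, adjusted p = 0.0430), which made 3 members lower and 0 higher, where 7.16% and 7.91% of all genes were. Acsl1 gave -0.71 ± 0.26 (limma, adjusted p = 0.0802), and Acadl 0.39 ± 0.22 (limma, adjusted p = 0.252), so no difference of Acadl between the backgrounds was shown. Among the other pathway genes, Bdh1 (-1.34), Scp2 (-1.03), Acox2 (-0.99) and Eci2 (-1.12) passed as lower, and Cd36 (3.05), Cidec (2.74), Pecr (0.99) and Slc27a5 (0.79) as higher. Of the markers, 2 of endothelium and 2 of stellate cells (1 after centring) passed as lower and 2 of neutrophils as higher in this test. Of erythroid markers 1 was lower, and of the 10 hepatocyte markers 1 was higher and 3 lower. The part of these cells was not tested.

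FoxA3 loss alone can be read only across the sides without and with FoxA3, in FoxA3 null against lox. Here 4 of the 8 members were higher in FoxA3 null and 1 lower. All tested genes shifted by a median of 0.10, so relative differences are given as well. Cpt1a was 50.3 to 100.1 RPKM against 23.1 to 35.4 in lox, without overlap (as for 40.1% of all tested genes), a difference of 1.34 ± 0.33 (1.23 relative to all genes; limma, adjusted p = 0.00800). Hadha was 239 to 307 against 145 to 156 RPKM, also without overlap (0.91 ± 0.14, relative 0.80; limma, adjusted p = 0.000534).

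Ehhadh, at 70.1 to 120.3 against 47.9 to 58.3 RPKM, was also higher (0.89 ± 0.18, relative 0.79; limma, adjusted p = 0.00333). Acadm was higher by 0.66 ± 0.15 (relative 0.56; limma, adjusted p = 0.00588), and it was the only member for which the 8 libraries without FoxA3 (145 to 245 RPKM) and the 7 with it (93.4 to 132 RPKM) did not overlap, as for 11.1% of all tested genes. Cpt2 was lower by 0.53 ± 0.15 on the log2 scale (limma, adjusted p = 0.0163), a call lost without lox library 1 (adjusted p = 0.0872) or lox library 2 (adjusted p = 0.0864). Acsl1 and Acadl had groups without overlap (as for 40.1% of all tested genes in either direction) and higher in FoxA3 null but did not pass. Fabp1 overlapped and did not pass either (0.16 ± 0.19; limma, adjusted p = 0.516), but after quantile normalization it was 0.85 and passed as higher (limma, adjusted p = 0.00057). In all 4 of 8 members were higher and 1 lower, where 21.7% and 13% of all genes were, and the same counts stood after centring on library medians, where 17.1% and 16.7% were. A log2 difference of at least 1 was met by 1 member higher and 0 lower, where 3.63% and 3.56% of all genes met it.

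Of the 15 further mitochondrial genes, 10 were higher and 2 lower in FoxA3 null, where 21.7% and 13% of all genes were. After centring 8 were higher and 2 lower, where 17.1% and 16.7% were. Acad11, a dehydrogenase of very long chains, was 163 ± 36.9 against 55.8 ± 4.33 RPKM (relative difference 1.40), Etfdh, which passes electrons to ubiquinone, 95.5 ± 19.3 against 40.9 ± 2.42 (1.08), and Eci2 343 ± 54.3 against 155 ± 36.8 (1.05). Hadhb, the beta subunit that pairs with Hadha, was named after its values were seen. It was listed at 15.8 ± 3.00 RPKM in FoxA3 null, against 284 ± 30.5 for Hadha. The counting and annotation are not given, so whether this gap is one of RNA amount is not known. Hadhb was higher in FoxA3 null than in lox, as Hadha was (relative 0.54). In the carnitine shuttle 2 of 4 genes were higher, Crat (relative 1.35) and the carnitine importer Slc22a5 (0.59). Of 16 peroxisomal genes 6 were higher and 1 lower (3 and 2 after centring). Of the 6 genes of ketone synthesis and export 4 were higher, and 1 after centring, Bdh1 at a relative 0.89. Of the markers, 1 of 2 tested of cholangiocytes (-1.45) and 1 of 3 erythroid ones (-1.10) were lower, 1 of 10 of hepatocytes was higher (1.29), and the erythroid sum was 33.0 to 47.3 against 81.3 to 90.8 RPKM in lox. Their part in these values was not tested.

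**Figure D3:**
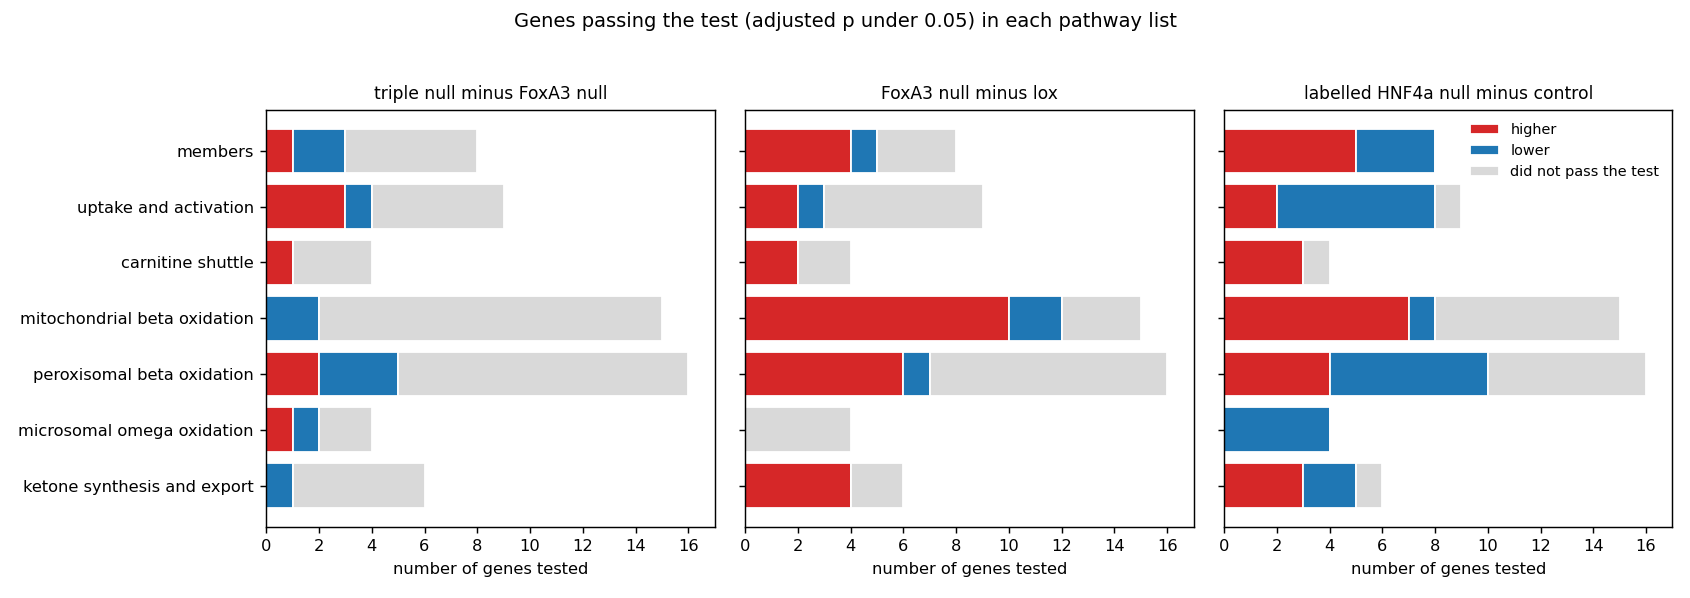
Number of tested genes (x axis) of the members and of 6 pathway lists (y axis) that were higher, lower or did not pass at an adjusted p under 0.05 (limma) in 3 comparisons. For triple null against FoxA3 null 13 of 15 mitochondrial genes did not pass. There 0 were higher and 2 lower, where 17.4% and 12.3% of all tested genes were. In FoxA3 null against lox 10 of 15 were higher (21.7% of all), and 8 after centring on library medians (17.1%). In liver labelled HNF4a null all 4 genes of omega oxidation were lower before and after centring, where 11.7% and 17% of all were.

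Triple null against lox and against Cre alfp also cross the sides without and with FoxA3, and both share the triple null libraries with the first comparison. Against lox, Acadm (0.95 ± 0.15), Acadl (0.85 ± 0.16), Ehhadh (0.66 ± 0.18) and Hadha (0.61 ± 0.14) were higher, and Cpt2 (-0.69 ± 0.15) and Fabp1 (-0.54 ± 0.19) lower, which makes 4 and 2 of 8 where 27.7% and 14.8% of all genes were (limma). The median of all genes was 0.13, and after centring 4 were higher and 3 lower, Acsl1 being the addition, where 21.2% and 19.8% of all genes were. None of the 8 met a log2 difference of at least 1 (limma; 7.72% of all genes higher and 5.81% lower did). The call of Fabp1 was lost without lox library 1 (adjusted p = 0.0752), lox library 2 (0.0966), triple null library 1 (0.0602) or triple null library 3 (0.0882), and also without the filter on low values (0.288).

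Against Cre alfp, Fabp1 had its largest difference among hepatocyte groups, at 50.3% ± 9.46 of the Cre alfp mean without overlap, as for 39.6% of all tested genes (-1.01 ± 0.17; limma, adjusted p = 0.000484). Acadm (0.80 ± 0.14), Acadl (0.72 ± 0.15) and Ehhadh (0.50 ± 0.17) were higher, so 3 members were higher and 1 lower where 26.9% and 14.4% of all genes were (limma). The median of all genes was 0.13, and after centring Ehhadh no longer passed (limma, adjusted p = 0.0582), which left 2 higher and 1 lower, where 21.3% and 18.7% of all genes were. Ehhadh also lost its call without the filter on low values (adjusted p = 0.0596), after quantile normalization (0.117), and when any of 5 of the 8 compared libraries was left out, Cre alfp 2 or 3 or triple null 2, 3 or 4 (limma, adjusted p from 0.0675 to 0.0866). A log2 difference of at least 1 was met by 0 members higher and 1 lower, where 5.26% and 5.03% of all genes met it. Cpt1a overlapped and did not pass (limma, adjusted p = 0.992), with groups of 33.3 to 67.1 and 26.9 to 73.1 RPKM. In the authors' deposited tables, Acadm had log2 fold changes of 0.78 and 0.64, Acadl 0.67 and 0.50 and Fabp1 -0.75 and -1.19 for the triple null against undeleted control and against Cre alfp. Against undeleted control 4 members were higher and 3 lower, where 25.7% and 25.9% of genes in that table were. These directions rest on a sign inferred from genes lost in the other tables. Against Cre alfp 3 were higher and 1 lower, where 25.2% and 25.7% were. Markers of other cells moved in these comparisons too. Against lox and against Cre alfp, 4 and 6 of the 6 tested endothelial markers were lower, and both tested markers of neutrophils and monocytes were higher in each. Of 3 erythroid markers, 2 were higher and 1 lower against lox, and 1 higher and 1 lower against Cre alfp. Stellate cells had 1 of 3 lower in each, cholangiocytes 2 of 2 lower against lox, and Kupffer cells 2 of 5 lower against Cre alfp (4 after centring). Of the 10 hepatocyte markers 4 were higher and 4 lower against lox, and 3 and 3 against Cre alfp. After centring, 0 of the erythroid markers were higher and 2 of stellate cells were lower against Cre alfp. Hepatocyte markers then gave 3 higher and 5 lower against lox, and 2 and 3 against Cre alfp. Their part in the values of the members was not tested.

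Liver labelled HNF4a null had little Fabp1 RNA. Fabp1 was 7409.7 and 6982 RPKM in the 2 control libraries and 17.5, 27.4, 27.9 and 64.1 RPKM in the 4 labelled null, 0.475% ± 0.285 of the control mean, or 210.3-fold lower. Acsl1 and Cpt1a were also lower, and the other 5 members were higher. The groups did not overlap for any of the 8, as for 67% of all 12434 tested genes, and 5 of 8 passed as higher and 3 of 8 as lower, where 41.1% and 11.7% of all 12434 tested genes were higher and lower (limma). All genes shifted by a median of 0.34, and after centring on library medians 4 were higher and 3 lower, where 18.3% and 17% of all genes were. A log2 difference of at least 1 was met by 0 members higher and 1 lower, where 8.58% and 5.95% of all genes met it.

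The difference of Fabp1 was -7.83 ± 0.45 (-8.17 relative to all genes; limma, adjusted p = 3.51e-05). Acsl1 measured 274 and 376 RPKM in control and 169, 153, 183 and 203 in the labelled libraries (-0.86 ± 0.17, relative -1.20; limma, adjusted p = 0.00569). Cpt1a measured 60.2 and 54.1 against 42.1, 43.4, 38.7 and 41.3 RPKM (-0.45 ± 0.09, relative -0.79; limma, adjusted p = 0.00681). Cpt1a lost its call without the control library ACTGATA (limma, adjusted p = 0.0588), a fit that leaves 1 control library, assumed to vary like the other group.

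Acadl went from 30.4 and 30.7 RPKM in control to 58.1, 64.4, 51.5 and 57.7 RPKM (0.90 ± 0.11, relative 0.56; limma, adjusted p = 0.000808). Ehhadh went from 73.0 and 65.4 to 123, 111, 114 and 109.8 RPKM (0.72 ± 0.09, relative 0.38; limma, adjusted p = 0.00123). Thus every labelled library exceeded both controls for these genes. Acadm (0.63 ± 0.11, relative 0.29), Hadha (0.56 ± 0.09, relative 0.22) and Cpt2 (0.48 ± 0.08, relative 0.15) were higher by less, and Cpt2 did not pass after centring (limma, adjusted p = 0.0651). The authors' deposited table gave Fabp1 -8.12 ± 0.63, Acsl1 -1.41 ± 0.14 and Cpt1a -0.88 ± 0.09 as lower, and Acadl 0.48 ± 0.09 and Ehhadh 0.30 ± 0.10 as higher, with Cpt2, Acadm and Hadha not passing. In it 21.4% of genes were higher and 24.9% lower.

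The lists around the members are given by their counts for these liver libraries. Beside them, 41.1% of all tested genes were higher and 11.7% lower (18.3% and 17% after centring). Of 9 genes of uptake and activation 6 were lower and 2 higher, with Slc27a5 at 3.17 ± 1.24 against 724 ± 67.6 RPKM (relative difference -7.83), Fabp2 at 0.692 ± 0.428 against 60.5 ± 2.96 (-5.55) and Cd36 at 91.4 ± 11.4 against 19.9 ± 4.44 (1.82). In the carnitine shuttle 3 of 4 were higher and 0 lower (2 and 1 after centring). All 4 genes of omega oxidation were lower, Cyp4a12a at 0.0349 ± 0.0379 against 99.6 ± 5.58 RPKM. Of 15 further mitochondrial genes 7 were higher and 1 lower (5 and 3 after centring), with Decr1 (relative 0.78) and Eci2 (0.59) up and Acad11 (-1.24) down.

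Of 16 peroxisomal genes 6 were lower and 4 higher (9 and 3 after centring), with Scp2 (relative -1.88) and Acaa1b (-1.65), a thiolase whose reads may be shared with its near copy Acaa1a, down and Abcd2 (0.87) up. Of 6 genes of ketone synthesis and export 3 were higher and 2 lower (2 and 3 after centring). Bdh1 was at 0.755 ± 0.691 against 133 ± 8.81 RPKM (relative -6.67), and Slc16a1, a transporter of ketone bodies and lactate, was higher (0.69). Ppara was 10.4 to 13.8 against 52.4 and 63.1 RPKM (relative -2.52; limma, adjusted p = 4.88e-05). Of 14 regulators 4 were higher and 3 lower (3 and 6 after centring), and of 2 genes of malonyl-CoA control Acaca was higher. Of 7 tested genes linked to PPARalpha 3 were higher and 3 lower (2 and 4 after centring): Vnn1 was lower (relative -2.25) and Pdk4 (2.05) and Plin2 (1.05) were higher. The 6 cholangiocyte markers summed to 107 to 205 RPKM against 14.5 in both controls, all 4 tested were higher (2 after centring), and the hepatocyte sum was 13966 to 15383 against 23853 to 24664 RPKM, with 2 of 10 higher and 3 lower (1 and 5 after centring). Of other markers, 3 of 6 of stellate cells, 2 of 7 of endothelium, both tested ones of neutrophils and monocytes (1.48 and 1.67) and 1 of 5 of Kupffer cells (Marco, 1.82) were higher. So were the 1 tested marker of lymphocytes (0.52) and the 1 of heart and skeletal muscle (1.73), of which only the latter passed after centring. After centring, 0 of stellate cells and 0 of endothelium were higher, 1 of endothelium was lower, and 1 of neutrophils and monocytes was higher. Of 3 erythroid markers 1 was lower (Alas2, -2.85). The part of these cells in the values of the members was not tested.

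The start of Fabp1, whose RNA was 210.3-fold lower in liver labelled HNF4a null, is shown beside that of Acadl, which was higher there and in the triple null, because the pair differ in base content. RefSeq start sites on GRCm38.p6 matched all 8 members, with 9 starts, and the 250 bases before each start were searched on both strands. For nuclear receptors the search used the direct repeat type 1 (AGGNCA, any base, then AGGTCA) and the HNF4a-type letters CAAAGTCCA, CAAAGTTCA and CAAAGGTCA, the last of which can overlap the repeat. For forkhead factors it used TGTTTAC and also 2 variants, TGTTTGC among them, with TATTTAC as the other. The TATA box was searched as TATAAA. Capitals mark matches, and the sequences run 5′ to 3′ on the strand of the gene, chr6:71199629-71199878 (plus strand) for Fabp1 and chr1:66863310-66863559 (minus strand) for Acadl.
Fabp1: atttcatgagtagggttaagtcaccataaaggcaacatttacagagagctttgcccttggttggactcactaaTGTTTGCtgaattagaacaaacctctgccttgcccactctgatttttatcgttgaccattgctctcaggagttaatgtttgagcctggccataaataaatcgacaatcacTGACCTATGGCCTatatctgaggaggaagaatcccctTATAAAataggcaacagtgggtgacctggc
Acadl: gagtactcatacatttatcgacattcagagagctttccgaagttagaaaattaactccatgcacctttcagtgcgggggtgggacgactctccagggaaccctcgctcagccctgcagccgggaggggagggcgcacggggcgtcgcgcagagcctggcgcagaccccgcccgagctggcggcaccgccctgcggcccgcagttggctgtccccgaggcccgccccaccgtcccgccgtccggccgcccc

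In Fabp1, the direct repeat matched on the minus strand 67 to 55 bases before the start, printed above as TGACCTATGGCCT, and 0.0822% of 32851 promoters of this length hold such a match. TGTTTGC lay 177 to 171 bases before the start (4.3% of promoters hold it) and TATAAA 30 to 25 bases before it (12.4%). None of the 8 other member starts held any of the 8 searched motifs. Fabp1 had 42.8% GC and 2 CpG, while the other 7 members each had a start with 56.8% to 72% GC and 12 to 25 CpG. The second start of Acsl1 had 48.4% and 2, and all promoters had medians of 52.4% and 6. A match describes letters only, and no match says only that these letters are absent from this window.

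The authors' deposited tables also set fetal and newborn cells against adult hepatocytes. In hepatoblasts, the fetal precursors of hepatocytes, all 8 members were lower and 0 higher, where 37.9% and 41.3% of genes in that table were, from -1.76 ± 0.17 for Hadha to -5.84 ± 0.23 for Ehhadh and -7.07 ± 0.58 for Fabp1 (log2 fold change ± SE). In newborn hepatocytes 4 members were higher, Cpt1a (2.35 ± 0.25), Hadha (1.57 ± 0.14), Acsl1 (0.78 ± 0.23) and Acadl (0.59 ± 0.12), where 31.6% of genes were, and Fabp1 alone was lower (-2.63 ± 0.16), where 31.7% were. Among genes of ketone synthesis and export, the authors' deposited tables gave Bdh1 at -3.44 in hepatoblasts, and in newborn hepatocytes Bdh1 (2.16) and the transporter Slc16a1 (2.91) as higher. The authors' deposited table of triple null against hepatoblast had all 8 members higher, from 2.30 ± 0.23 for Hadha to 6.33 ± 0.49 for Fabp1, where 37.6% of genes were higher and 43.6% lower. The libraries and adult reference behind these tables are not stated, and the first and last of them share hepatoblasts.

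**Figure D4:**
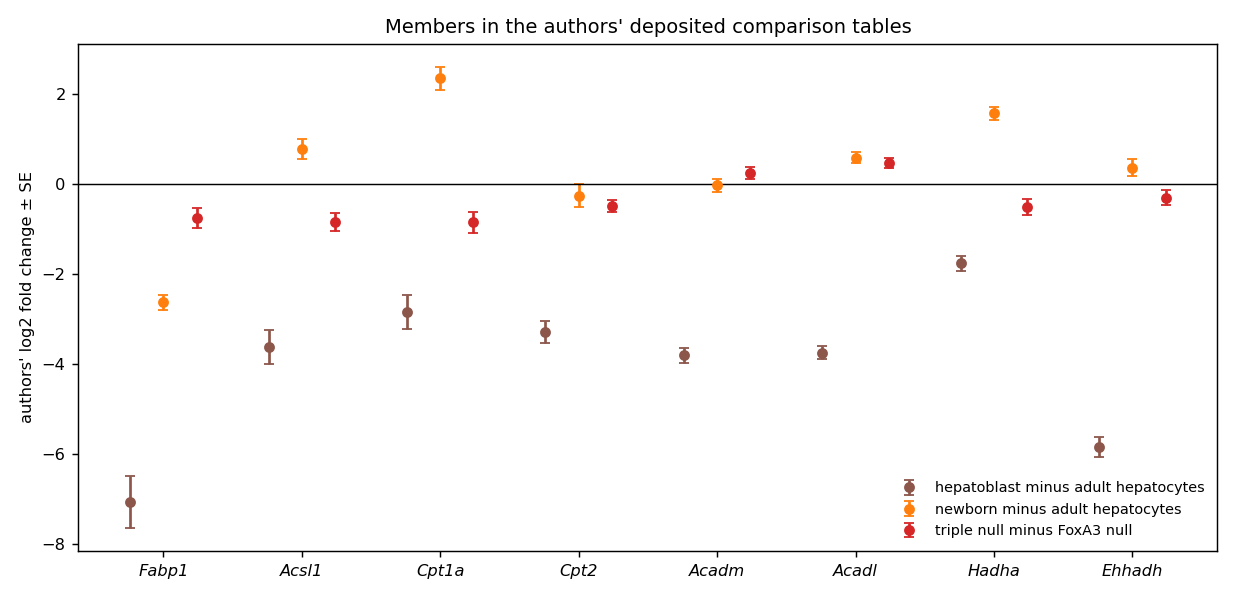
Log2 fold changes (y axis, ± SE) of the members (x axis) in 3 of the authors' deposited tables, 2 against adult hepatocytes (hepatoblast, newborn) and 1 against FoxA3 null (triple null), which are separate references. Hepatoblast values lie from -7.07 to -1.76 and triple null values from -0.86 to 0.47, and Fabp1 was the only member lower in newborn hepatocytes at an adjusted p under 0.05.

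Over the 15 hepatocyte libraries, the gene most like each member was taken by Pearson's r of log2(RPKM + 1). This is a description of libraries that share groups and FoxA3 status. It was Hdc for Fabp1 (r = 0.89), Scp2 for Acsl1 (0.86), Elf2 for Cpt1a (0.95), Ube2u for Cpt2 (0.90), Prelid1 for Acadm (0.97), Slc25a21 for Acadl (0.96), Pex14 for Hadha (0.97) and Hsdl2 for Ehhadh (0.95). Among the members themselves, Hadha and Ehhadh were most alike (0.94), and Acadm and Cpt2 most opposed (-0.72).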

How the data were processed

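RNA-seq values are RPKM per gene symbol that the authors deposited as 1 matrix. The submitters' processing notes name SAMtools, Cufflinks 2.2.1, DESeq2 and mm9 without roles, and the counting and annotation are not given in the sources used here. Of the matrix columns, 21 matched samples or groups, and 9 matched no sample and were not used. Columns of the HNF4a libraries carry barcodes in place of replicate numbers. Separate tables, 1 per comparison, give the authors' log2 fold change and p-value for each gene, per the file headers. The sign of the table against undeleted control was inferred from genes lost in every other table, and was turned for that reason. The p-values of the table against Cre alfp were adjusted here by the Benjamini-Hochberg method.

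The test was limma (version 3.58.1, under R 4.3.3, with lmFit and a trended eBayes) on log2(RPKM + 1), a scale that understates the change of a low gene. Hepatocytes (15 libraries, genes reaching 1 RPKM in 3 or more) and liver (6 libraries, genes reaching it in 2 or more) were fitted apart. p-values were adjusted over all tested genes, and a gene passed at an adjusted p under 0.05. RPKM gives no counts, so no intervals from depth were made. No 2 libraries were identical. The fit was tested on simulated data. The members and lists were chosen with earlier results of these data known. From each list, up to 3 passing genes with the largest difference were named if the mean of the higher group reached 5 RPKM, and Hadhb, Ppara, Creb3l3 and Acacb were named in addition, after their values were seen. HNF4a peaks were not used here, and some genes of the lists are not reported here.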

Additional observations from a re-analysis of the deposited data

Results flagged for a closer look

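Cpt1a in triple null library 3 measured 67.1 RPKM, while the other 3 libraries of that group lay between 33.3 and 36.8, a gap large against the range of 4 libraries. It was 1 of 32 pairs of group and member to stand apart in this way, no more than the share of about 1 in 20 that chance gives.

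By the interaction test in limma, the FoxA1/A2 deletion differed between the backgrounds without and with FoxA3 for 2 of 8 members. Both were lower, where 6.17% of all tested genes were. The means of deletion differed along with FoxA3 status, and their parts cannot be told apart. The interaction was -1.17 for Fabp1, with triple null below FoxA3 null in overlapping groups. Cre alfp was above lox for Fabp1 without overlap, as for 19.9% of all tested genes in either direction, but did not pass. The interaction was smaller for the other member. For Hadha the interaction was -0.63, and its difference was -0.29 without FoxA3 and 0.33 with it. Neither passed without the filter on low values, and Hadha also lost its call with the replicate block (limma, adjusted p = 0.0858) and when any of 12 of the 15 libraries was left out.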

How the results depend on the processing

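Alternatives were a pseudocount of 0.1, no filter on low values, centring on library medians, quantile normalization, eBayes without a trend, only the compared groups in the fit, a minimum log2 difference of 1, the replicate block and leaving out each library. Against FoxA3 null, 4 members of the triple null were lower after centring or quantile normalization and 1 without the filter, and counts lay between 2 and 4 lower and 0 and 2 higher as single libraries were left out. For the interaction, 0 were lower without the filter, 4 after quantile normalization, and 1 to 3 lower and 0 to 1 higher with a library left out. In Cre alfp against lox, 0 to 1 were lower with a library left out. For FoxA3 null against lox, 0 were lower with only the compared groups in the fit, and 0 to 1 with a library left out. Against lox, 1 triple null member was lower without the filter, and 1 to 2 with a library left out. Against Cre alfp 2 to 4 were higher, and in liver 2 to 3 lower, with a library left out. Of all tested genes, the share lower in triple null against FoxA3 null was 5.39% without the filter, 14.1% after quantile normalization and 9.44% to 14.1% with a library left out, and the share higher in the last case was 13.6% to 18.7%. For the interaction these were 2.3%, 7.26%, 4.12% to 7.7%, and 5.01% to 9.32%. With a library left out, 1.15% to 2.58% were lower in Cre alfp against lox, 7.83% to 15.4% in FoxA3 null against lox (9.53% with the compared groups only), 11.5% to 14% in triple null against lox (8.05% without the filter) and 7.26% to 11.8% in liver, and 21.6% to 29% were higher against Cre alfp.

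Requiring a log2 difference of at least 1 left 0 higher and 0 lower when the triple null was set against FoxA3 null or lox, 0 higher against Cre alfp, 1 lower for the interaction, 1 higher and 0 lower for FoxA3 null against lox, and 0 higher and 1 lower in liver. Signs changed only as libraries were left out. Acadl in Cre alfp against lox was -0.0104 without Cre alfp 4 and at most 0.23 (without Cre alfp 3). Cpt1a in triple null against Cre alfp was 0.05 without Cre alfp 1, 0.26 without Cre alfp 4, 0.10 without triple null 1, 0.06 without triple null 2 and 0.05 without triple null 4, and at its lowest -0.23 without triple null 3. The cause of these changes was not tested. Without the filter 24768 genes were tested, and the SE of Fabp1 in triple null against FoxA3 null was 0.30 in place of 0.17.

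Correlations of same-numbered libraries ran from -0.36 to 0.02 in triple null with FoxA3 null and from -0.20 to 0.12 in Cre alfp with lox. Across all pairs of groups they reached 0.17 (lox with triple null), and those of differently numbered libraries 0.39 (FoxA3 null with triple null). The numbers thus gave no sign of pairing, which cannot show that the libraries were unpaired. With the replicate block 1 member was lower in the interaction, where 5.11% of all genes were, Hadha at -0.61 no longer passing (limma, adjusted p = 0.0858), and no other call of a member changed. No paired analysis was possible in liver, because the columns carry no numbers. Depth limits the lowest values of the liver libraries most.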
